A study of Mus musculus with 8 samples.

Results

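Nuclear receptors are transcription factors that bind small lipid-soluble ligands, or are close relatives of proteins that do, and 38 genes of this family were examined in the livers of 8 calorie-restricted Ames dwarf mice. Members were taken from a list of symbols, and each was read from the brightest probe set that the array's annotation gives to that symbol alone. Of the 38 listed genes, 31 had such a probe set, among 8251 named genes in the table. The other 7 (Rarb, Rorb, Nr1h2, Nr2e1, Nr2e3, Nr3c2 and Nr4a3) were not analysed here. All 8 mice were female and df/df, the genotype of the Ames dwarf, which makes no growth hormone, prolactin or thyrotropin because the pituitary cells for them are missing. Each had received 30% less food than dwarf females with free access to it and was 24 to 26 months old at death. There is 1 group, so the data carry no measure of what the diet or the mutation does, and every comparison is between individual mice, numbered 1 to 8 as labelled. One Affymetrix U74Av2 array, which reads each transcript with sets of short oligonucleotide probes, was hybridised per mouse.

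A typical nuclear receptor has a zinc finger domain that binds DNA and a second domain that holds the ligand and recruits coactivators or corepressors. Many act as heterodimers with a retinoid X receptor, among them the liver X, pregnane X, constitutive androstane, peroxisome proliferator-activated and retinoic acid receptors. In liver the family is known for its control of bile acid and cholesterol metabolism, drug clearance and fatty acid oxidation, and several members are known from other work to fall in hepatic inflammation.

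Intensities are given as deposited, on a linear scale with arbitrary units. A gene counts as measured where its mean over the 8 mice reached 165.2, the median of all values in the table, and a lower floor of 37.2 (their 25th percentile) marks values with no usable order. By this rule 15 of the 31 receptors were measured (48.4%), as were 59.0% of the 8251 named genes. The other 16 are called near background, since 27 of 31 genes chosen as not used in adult liver lay under the same threshold. The 95th percentile of those 31 genes was 298, and 12 of the 15 measured receptors lay above it. Levels of different probe sets cannot be set against each other, so each receptor is described against the threshold and across mice only.

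**Figure D1:**
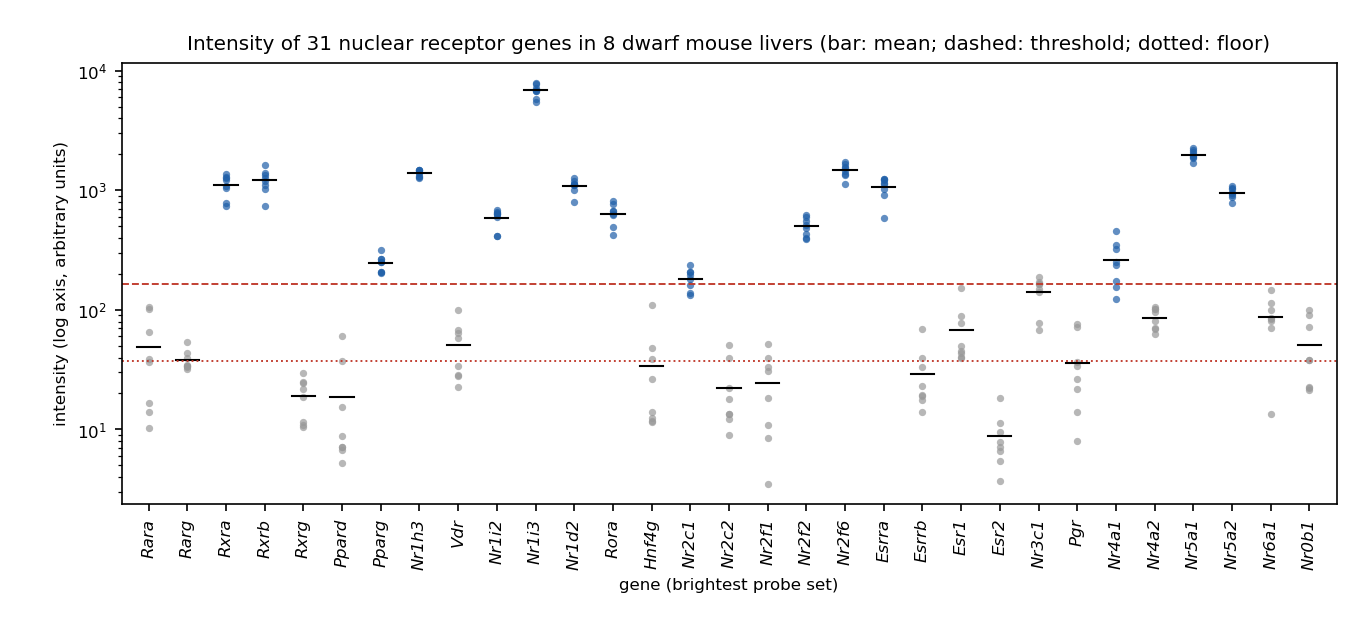
Intensity (log axis, arbitrary units) of the brightest probe set of 31 nuclear receptor genes, with a point for each of the 8 mice and a bar at the mean. The 15 measured genes are blue, the 16 near background are grey, the dashed line is the threshold of 165.2 and the dotted line the floor of 37.2.

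The xenobiotic receptors Nr1i3 and Nr1i2 were both measured in every mouse. Nr1i3 encodes the constitutive androstane receptor, which induces Cyp2b genes in hepatocytes, and its brightest probe set averaged 6855 ± 829 (SD, n = 8), from 5537 in mouse 8 through a median of 6885 to 7913 in mouse 2. Mice 6 and 8 were the lowest of the 8 on this probe set. Its other 2 probe sets averaged 5270 ± 592 and 4164 ± 647, and mouse 8 was lowest on all 3. Nr1i2, the pregnane X receptor, which induces Cyp3a genes, read 682, 649, 639, 661, 412, 413, 604 and 637 in mice 1 to 8. Mice 5 and 6 thus stood together below the other 6, which lay within a narrow band. Vdr, the vitamin D receptor of the same subfamily, averaged 50.6 ± 26.8 and was near background.

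Among the retinoid receptors, 2 of 5 with a probe set were measured, and both were retinoid X receptors. Rxra, the main retinoid X receptor of hepatocytes, read 1086, 1368, 1042, 1227, 791, 735, 1278 and 1289 in mice 1 to 8. Mice 5 and 6 were again the lowest, and its second probe set, which averaged 790 ± 171, put the same mice lowest (558 and 591). Rxrb, the more widely expressed partner, read 1637, 1203, 1411, 1338, 1030, 1120, 1267 and 737, so that mouse 8 was lowest and mouse 1 highest. The retinoic acid receptors Rara and Rarg averaged 48.8 ± 38.7 and 38.1 ± 7.45, and Rxrg averaged 19.1 ± 7.37, under the floor.

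Of the lipid sensors, Nr1h3 varied least of all measured receptors. It encodes liver X receptor alpha, which responds to oxysterols, and it averaged 1394 ± 91.9, from 1272 in mouse 6 through a median of 1411 to 1493 in mouse 1, a range of 1.17-fold. Pparg, the adipocyte regulator, averaged 246 ± 38.6, from 206 in mouse 8 to 317 in mouse 2. Its probe set is of a type that shares probes with related transcripts, and its level stood above the threshold but under the 95th percentile of genes not used in adult liver. Of the adipocyte markers with a probe set, 2 of 5 (Lep and Car3) were measured, with a summed level between 7775 and 14397 over the mice. Most of that sum was Car3, which averaged 10199, while Lep averaged 1040. Adipoq, Fabp4 and Retn were near background, with means of 63.4, 108 and 16.3. The part of adipose tissue in the Pparg signal was not tested. Ppard, the fatty acid sensor of many tissues, averaged 18.6 ± 20.0, under the floor.

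Both receptors of the circadian clock with a probe set were measured. Nr1d2, a heme-binding repressor also called REV-ERB beta, averaged 1094 ± 141, from 800 in mouse 3 through a median of 1120 to 1270 in mouse 1. Rora, the activator that competes with REV-ERB proteins for the same sites, averaged 635 ± 129, from 421 in mouse 3 through a median of 652 to 809 in mouse 7. Mouse 3 was lowest for both. The second Rora probe set averaged 15.0 ± 3.56, under the floor, so the Rora values rest on a single probe set of the kind that shares probes with related transcripts. The labels used here give no hour of death.

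In the NR2 subfamily of orphan receptors, 3 of 6 with a probe set were measured. Nr2f6, a repressor also called EAR2, averaged 1475 ± 190, from 1135 in mouse 5 through a median of 1495 to 1724 in mouse 4. Nr2f2, or COUP-TFII, known in venous endothelium and in mesenchyme as well as in liver, read 398, 483, 516, 628, 556, 393, 599 and 432 in mice 1 to 8. Mice 4, 5 and 7 had the 3 highest values and mice 1, 6 and 8 the 3 lowest. A second Nr2f2 probe set averaged 11.3 ± 7.96, under the floor, so the Nr2f2 values rest on a single probe set, as those of Rora do. Nr2c1, the testicular receptor TR2, averaged 183 ± 35.9 and reached the threshold in 5 of 8 mice, with 236 in mouse 1 and 135 in mouse 2 as its extremes. That mean lay under the 95th percentile of genes not used in adult liver (298). Hnf4g, Nr2c2 and Nr2f1 averaged between 22.4 and 34.3, all under the floor.

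No steroid receptor was measured, of 4 with a probe set. The glucocorticoid receptor gene Nr3c1 came nearest, with a mean of 141 ± 44.3, from 67.9 in mouse 3 to 188 in mouse 8, and it was the only receptor near background that reached the threshold in any mouse (2 of 8). Estrogen receptor alpha (Esr1) averaged 67.3 ± 39.3 on the brightest of its 4 probe sets, the progesterone receptor (Pgr) 36.2 ± 25.4 and estrogen receptor beta (Esr2) 8.75 ± 4.56. A mean near background says that these probe sets read little signal, not that the liver lacks the receptor.

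Esrra, the estrogen-related receptor that drives mitochondrial genes, read 1254, 1232, 1238, 1137, 586, 922, 1143 and 1034 in mice 1 to 8. Mouse 5 stood far below the others. On a second and dimmer probe set, which averaged 367 ± 61.6, mouse 5 read 383 and mouse 6 was lowest at 276, so the low value of mouse 5 was not shared by both probe sets. Esrrb averaged 29.4 ± 18.4, under the floor.

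Nr4a1, an immediate early gene that is induced by hormones, feeding state and stress, varied most. It read 459, 156, 122, 174, 237, 326, 349 and 251 in mice 1 to 8, a 3.76-fold range with mouse 1 highest and mouse 3 lowest. It is close to the threshold, which it missed in 2 mice. Its mean of 259 lay under the 95th percentile of genes not used in adult liver (298). Nr4a2 of the same subfamily lay between 63.5 and 106 in all mice.

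Of the remaining subfamilies, Nr5a2 and Nr5a1 were measured, while Nr6a1 (86.8 ± 38.3) and Nr0b1 (50.6 ± 32.3) were near background. Nr5a2 is liver receptor homolog 1, which takes part in bile acid synthesis and cholesterol uptake, and it read 1078, 960, 917, 1023, 790, 886, 1039 and 953 in mice 1 to 8. Mouse 5 was lowest, and on its second probe set, which averaged 263 ± 79.5, mouse 5 read 97.6 against 211 to 330 in the other 7. Nr5a1 is steroidogenic factor 1, a receptor of adrenal and gonad. One of its probe sets averaged 1995 ± 180, whereas its 4 other probe sets averaged 163, 145, 61.6 and 5.46, all under the threshold. These probe sets disagree, and of the steroidogenic cell markers 2 of 6 were measured (Cyp21a1 and Cyp17a1), with Star, Cyp11a1, Hsd3b1 and Mc2r near background. The value named Nr5a1 below is that of the 1 bright probe set, and it is uncertain whether it reads Nr5a1.

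Control probe sets are given next, because mouse 5 was lowest for several receptors. The control probe sets at the 3′ and 5′ ends of the same transcripts gave a 3′ to 5′ ratio of 2.67 for Gapdh in mouse 5, against 0.794 to 1.07 in the other 7, and of 40.7 for pyruvate carboxylase, against 2.64 to 9.17. Beta-actin gave 1.45 to 1.998 with no mouse apart. Such a ratio is read as a sign of RNA quality. A control transcript added at hybridisation also split the arrays into mice 1 to 4 (15554 to 17571) and mice 5 to 8 (11361 to 12179), although the labels name no batch. Hepatocyte markers were bright in all livers, with 10 of 10 measured, the lowest averaging 1132. Macrophage markers differed widely between mice, with 12 of 14 measured and a summed level from 6533 to 42124. T and NK cell markers had 2 of 10 measured and a summed level from 364 to 3039, in which Ccl5 ranged most, from 15.1 to 2069. The other measured marker, Cd4, ran from 90.1 to 345. Cd3e, Cd3d, Cd3g, Cd8a, Cd8b1, Gzma, Gzmb and Klrd1 were near background. In whole liver RNA, fewer cells of a type and less RNA per cell cannot be told apart.

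Whether any receptor varied more between mice than genes of its brightness usually do was tested by comparing its variance of log2 intensity with the variance that limma expects at that brightness. By this F test, with Benjamini-Hochberg adjustment over 6265 probe sets, 0 of 15 receptors had an adjusted p under 0.05, and the background was 0% (0 of 6265). The lowest adjusted p of any probe set by this test was 0.265. Even the acute phase gene Saa3, with a 96.8-fold range and 189 times the expected variance, did not pass. The count of 0 therefore does not show that the receptors were steady between mice. Without adjustment 0 of 15 receptors had a p under 0.05, against 6.38% of all probe sets. The lowest adjusted p of a receptor by limma was 0.869, for Nr4a1, whose variance was 5.17 times the expected one. The SD on the log2 scale ran from 0.10 for Nr1h3 to 0.64 for Nr4a1, with a median of 0.26 over the 15 receptors and 0.23 over all 4869 measured genes. Only Nr4a1, Rxrb and Esrra had a highest value at least 2 times the lowest. A chi-square test that uses only the brightness trend, which takes no account of genes differing in variance, called 4 receptors (Rxra, Rxrb, Esrra and Nr4a1) and 18.3% of all probe sets.

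**Figure D2:**
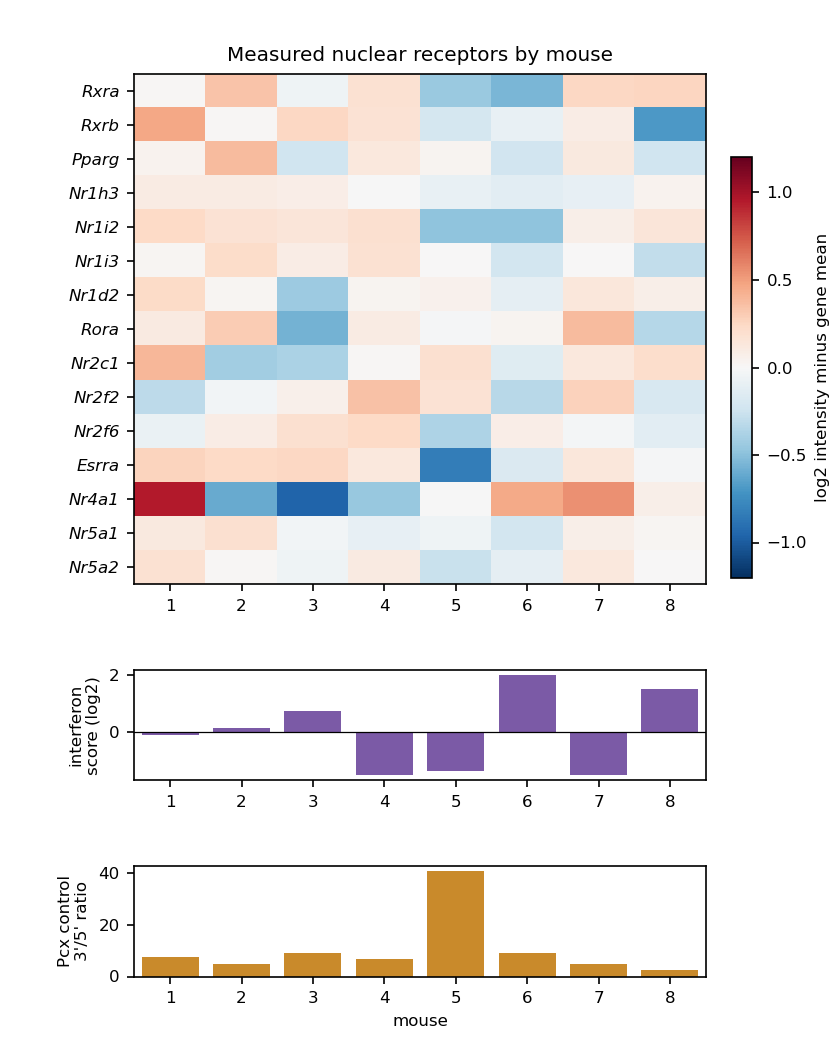
Colour shows each mouse's deviation from the gene's mean in log2 intensity (columns are the 8 mice) for the 15 measured receptors (rows); the bars below show the interferon score of each mouse (log2) and the 3′ to 5′ ratio of the pyruvate carboxylase control (Pcx). Rxra and Nr1i2 are lowest in mice 5 and 6, Esrra is lowest in mouse 5, where the control ratio is 40.7, and Nr4a1 has the widest range.

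Several receptors shared their low or high mice, as the values above show. Described by Pearson's r of log2 intensity over the 8 mice, with shared arrays and shared RNA, Rxra and Nr1i2 had the highest correlation of any pair at 0.883, followed by Nr1i2 with Esrra at 0.851, Esrra with Nr5a2 at 0.833 and Nr1i2 with Nr5a2 at 0.810. Without mouse 5, whose control ratios stood apart, these became 0.833, 0.835, 0.545 and 0.644. Pparg with Rora (0.791, and 0.794 without mouse 5) and Nr1d2 with Nr4a1 (0.697, and 0.702) were as high without it. The correlation of Nr2f6 with Esrra fell to 0.135 without mouse 5, against 0.732 with it.

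Probe sets of the same gene ranked the mice similarly for Rxra and less so for others. The pair of Rxra probe sets correlated at 0.935 over the 8 mice (0.907 without mouse 5), and the pairs of the 3 Nr1i3 probe sets at 0.423 to 0.838. For Nr5a2 the correlation was 0.689 with mouse 5 and -0.01 without it. For Esrra it was 0.190 with mouse 5 and 0.755 without it. The name of the second Rxra probe set marks it as one of a related group, so the pair may share probes. Both Rxra probe sets showed the same differences between mice, but this is no independent check if they share probes. The Nr5a2 probe sets did not share their differences among the other 7 mice.

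**Figure D3:**
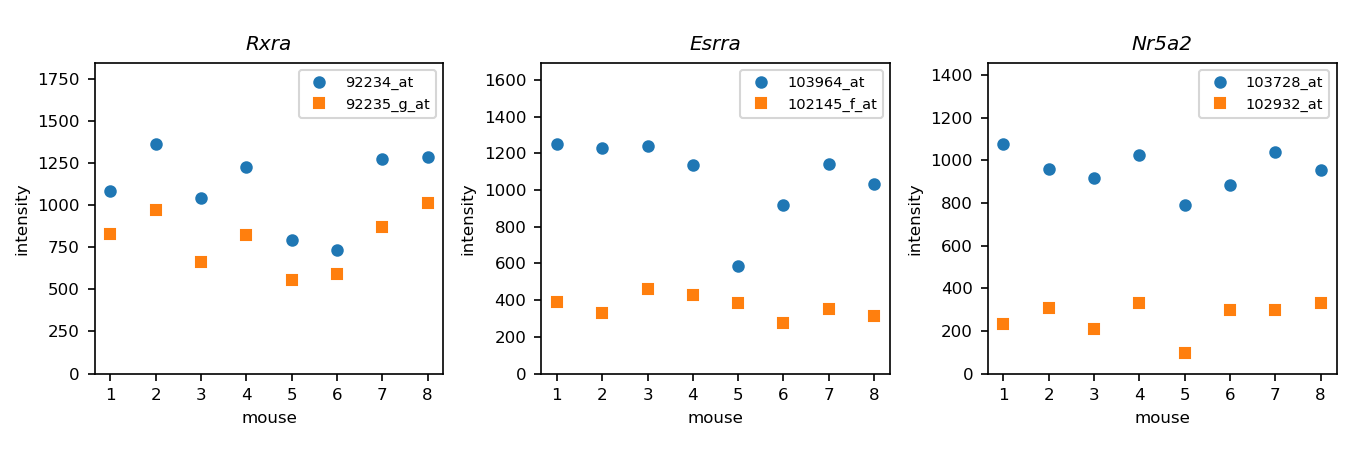
Intensity (linear axis) of both measured probe sets of Rxra, Esrra and Nr5a2 in each mouse, with the probe set names in the legends. Both Rxra probe sets are lowest in mice 5 and 6, the brighter Esrra probe set alone is lowest in mouse 5, and both Nr5a2 probe sets are lowest in mouse 5.

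To see how far the low values of mouse 5 go with its control ratios, a slope on the mean log2 ratio of the 3 controls was fitted with limma, a comparison added after the values were seen. The fit called 0 of 15 receptors and 0.766% of all probe sets (48 of 6265, 44 of them lower). Without adjustment 3 receptors had a p under 0.05, against 15.6% of all probe sets. The slopes were -0.49 for Esrra (adjusted p = 0.170 by limma), -0.41 for Rxra (adjusted p = 0.249) and -0.34 for Nr1i2 (adjusted p = 0.319), in log2 intensity per log2 unit of the ratio. With all probe sets of a gene averaged, Nr5a2 was called, with a slope of -0.58 (adjusted p = 0.0394 by limma). In that setting 40 of 4869 genes were called, 37 of them lower. The average takes in the second Nr5a2 probe set, on which mouse 5 read 97.6 against 211 to 330 in the other mice. Without mouse 5 the fit called 0 probe sets in all, and the slope was 0.14 for Esrra, -0.18 for Nr1i2 and -0.60 for Rxra, so the slope of Esrra turned and that of Rxra did not shrink. Without mouse 6 it called 115, without mouse 3 107, without mouse 7 30, without mouse 1 29 and without mouse 2 12.

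The promoters of the 3 receptors that moved together most closely or carry the bile acid results are shown with the nuclear receptor half-site AGGTCA, searched on both strands of the 300 bases around each start site in RefSeq (GRCm38.p6, 250 bases before the start to 50 after it). Capitals mark the half-site, which reads TGACCT when it lies on the other strand. The window of a second Rxra start, chr2:27709042-27709341 on the plus strand, holds 2 half-sites, beginning 87 bases before the start on the minus strand and 48 before it on the plus strand. That of Nr1i2, chr16:38294775-38295074 on the minus strand, holds none, and that of Nr5a2, chr1:136960399-136960698 on the minus strand, holds 1, beginning 64 bases before the start. The other listed starts of Rxra and Nr5a2 hold none.
Rxra: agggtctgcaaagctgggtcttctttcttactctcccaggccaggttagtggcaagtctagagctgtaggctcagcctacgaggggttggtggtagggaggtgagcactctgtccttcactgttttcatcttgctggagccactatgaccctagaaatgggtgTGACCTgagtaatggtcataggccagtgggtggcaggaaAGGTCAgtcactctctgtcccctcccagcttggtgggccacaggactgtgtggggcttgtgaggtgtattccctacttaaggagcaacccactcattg
Nr1i2: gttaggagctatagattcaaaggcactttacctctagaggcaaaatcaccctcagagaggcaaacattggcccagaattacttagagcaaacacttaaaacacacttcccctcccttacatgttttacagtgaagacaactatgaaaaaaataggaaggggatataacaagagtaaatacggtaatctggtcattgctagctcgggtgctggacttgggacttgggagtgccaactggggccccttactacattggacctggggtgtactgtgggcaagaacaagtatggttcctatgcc
Nr5a2: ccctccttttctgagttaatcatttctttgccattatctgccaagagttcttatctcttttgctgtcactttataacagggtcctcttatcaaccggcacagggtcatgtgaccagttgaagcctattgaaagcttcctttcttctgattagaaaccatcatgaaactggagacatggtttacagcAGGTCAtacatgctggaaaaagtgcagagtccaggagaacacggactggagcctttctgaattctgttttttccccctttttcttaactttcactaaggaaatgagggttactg

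The half-site was present in 16.3% of 32851 promoter windows and in at least 1 window of 18.1% of genes. It was found for 9 of the 35 listed receptors with a promoter entry and for 4 of the 14 measured ones. The longer motif CAAGGTCA, known as the site of NR5 and estrogen-related receptors, contains the half-site, and it occurred in 1.56% of windows and in 0 of 35 receptors. Such matches describe letters in a window and do not show binding.

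Interferon response genes differed widely between these livers, and the receptors were set against them by a slope of log2 intensity on an interferon score. The score of a mouse is the mean, over 17 measured interferon response genes, of log2 intensity minus the gene's mean. It was highest in mouse 6 (2.02), mouse 8 (1.52) and mouse 3 (0.75), near 0 in mice 1 and 2, and lowest in mouse 5 (-1.35), mouse 4 (-1.47) and mouse 7 (-1.50). In limma's fit on all 6265 probe sets, 0 of 15 receptors had an adjusted p under 0.05, against 7.77% of all probe sets (487, with 326 or 5.2% higher and 161 or 2.57% lower at a high score). At an unadjusted p under 0.05 there was 1 receptor, against 22.8% of all probe sets. Calls over all probe sets dropped to 135 without mouse 6 and to 218 without mouse 8. Macrophage markers moved with the score, with 11 of 12 tested called higher (5 of 11 without mouse 6, 6 of 12 without mouse 8 and 6 of 12 with no filter).

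The receptor that came nearest was Nr2f2, with a slope of -0.15 ± 0.050 (SE) and an adjusted p of 0.0899 by limma. Its r with the score was -0.817 (exact two-sided permutation p = 0.0178) and its Spearman rho -0.810 (exact p = 0.0218), and without the 2 mice farthest from the median score r was -0.682. That raw p is 1 of 15 for the receptors, and the adjusted p given is the one over all probe sets. With arrays scaled to a common median Nr2f2 passed, with a slope of -0.21 and an adjusted p of 0.0389 by limma. In that setting 618 of 6262 probe sets were called. Its second probe set lies under the floor in all 8 mice, so averaging it in adds a constant and shrinks the slope by construction. The slope was then -0.08 and the adjusted p 0.284 by limma, which is no check of the Nr2f2 result. Endothelial markers, cells in which Nr2f2 is known, had 4 of 8 measured, 0 of 4 called and a summed level between 2053 and 4007. All 4 slopes lay below 0, as that of Nr2f2 did, with a median of -0.16, and Kdr came nearest to passing (-0.34, adjusted p = 0.0548 by limma). Stellate and matrix markers went the other way, with a median slope of 0.04. Of 7 tested, 1 was called higher (Col1a1) and 0 lower, against 5.2% and 2.57% of all probe sets. The 10 hepatocyte markers had a median slope of -0.06, with 0 called. The part of any of these cells in the Nr2f2 values was not tested.

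Over all 15 receptors 12 slopes lay below 0 and 3 above it, with a median of -0.06 against -0.01 for all tested probe sets. The 95% intervals of 14 of the 15 held 0. That of Nr4a1 was the widest, from -0.35 to 0.35, and that of Nr1h3 the narrowest, from -0.07 to 0.10, while Nr1i3 had a slope of -0.08 with an interval from -0.18 to 0.01. The directions of Rxra, Rxrb, Nr1h3, Nr1i2, Nr2f6, Esrra, Nr4a1, Nr5a1 and Nr5a2 each turned under at least 1 alternative and are not read. Scaling to a common median shifted mouse 5 by 0.18 and mouse 8 by -0.10 on the log2 scale, and turned the split of all called probe sets to 259 higher and 359 lower, so slopes are relative to the scaling.

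**Figure D4:**
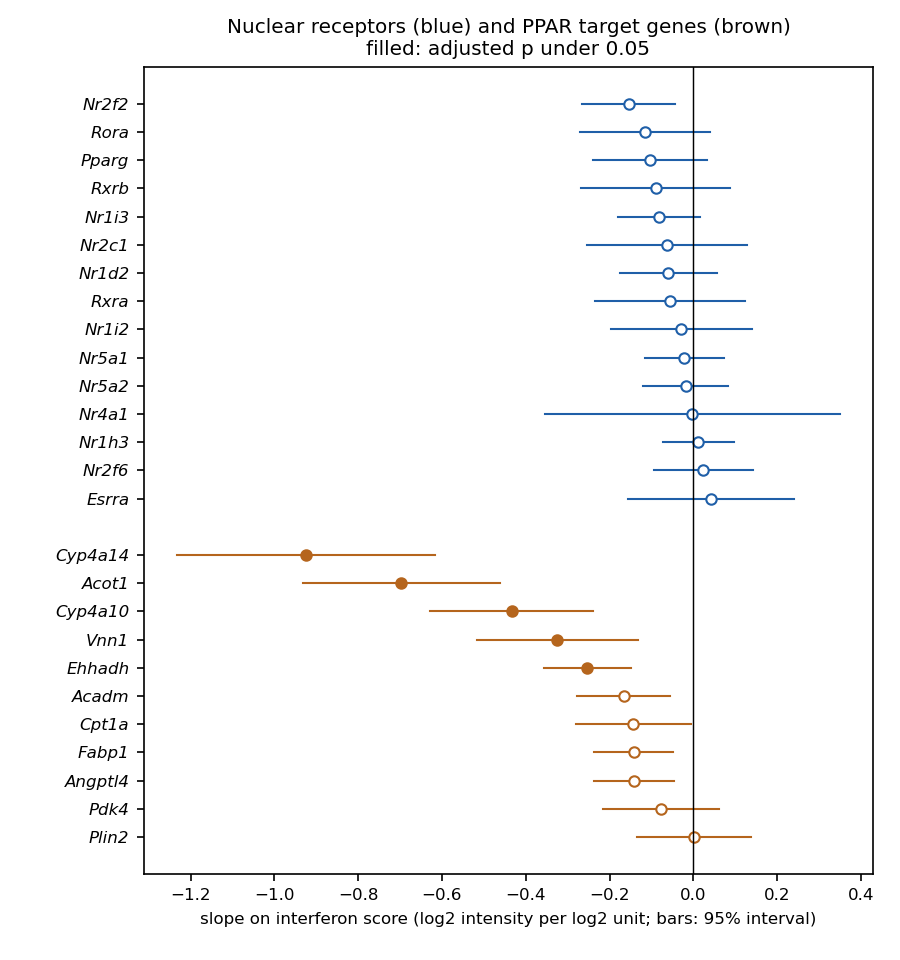
Slope of log2 intensity on the interferon score (horizontal axis, log2 per log2 unit) with its 95% interval for 15 nuclear receptors (blue) and 11 PPAR target genes (brown), filled where the adjusted p is under 0.05. Intervals of 14 of 15 receptors hold 0, while 5 PPAR targets lie below 0 and are filled.

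Genes controlled by nuclear receptors were read in the same fit from lists of known targets. Of 11 measured targets of peroxisome proliferator-activated receptors, 5 fell with a rising score, 0 rose and the median slope was -0.17. Over all probe sets 2.57% were called lower and 5.2% higher. Cyp4a14, a fatty acid omega-hydroxylase, read 5803, 6542, 3572, 8108, 6735, 761, 8973 and 990 in mice 1 to 8. The 3 mice with the highest scores (3, 6 and 8) had the 3 lowest values, and its slope was -0.92 ± 0.14 (SE), with an adjusted p of 0.00344 by limma. Acot1, a cytosolic acyl-CoA thioesterase, read 359, 375, 149, 401, 364, 79.0, 456 and 87.5, with a slope of -0.70 ± 0.11 (adjusted p = 0.00279). Cyp4a10, a relative of Cyp4a14 read by a probe set shared within its family, had a slope of -0.43 ± 0.087 (adjusted p = 0.0138). Vnn1, a pantetheinase, had a slope of -0.32 ± 0.087 (adjusted p = 0.0465), and Ehhadh, the peroxisomal bifunctional enzyme of beta-oxidation, of -0.25 ± 0.047 (adjusted p = 0.00824).

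Acadm, Cpt1a, Fabp1, Angptl4, Pdk4 and Plin2 did not pass, with slopes from -0.17 (Acadm) to 0.0006 (Plin2). The count of 5 became 8 with a common median and 3 with either a stricter filter or none, and Acot1 and Cyp4a14 alone remained without mouse 6. It was 3 without mouse 8. Vnn1 was the least steady of the 5, called in 7 of the 17 alternatives that tested it and in 1 of 6 with a mouse left out. Elsewhere Fabp1 or Acadm could stand in its place in a count of 5. Summed macrophage markers were 6533 to 42124 over the same mice, and their part in these slopes was not tested. The receptor most known for these targets in liver is not among the listed genes, and the measured Pparg had a slope of -0.10 with an interval from -0.24 to 0.03.

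Of 12 measured targets of the xenobiotic receptors 1 fell and 0 rose, with a median slope of -0.05. A single call among 12 is near the 7.77% of all probe sets called. The gene was Cyp2c29, a drug-metabolising cytochrome P450, which read 1225, 1284, 1143, 1201, 1501, 648, 1380 and 742 in mice 1 to 8. Mice 6 and 8 lay below the other 6, and the slope was -0.27 ± 0.057 (SE; adjusted p = 0.0151 by limma). The call was absent without mouse 6, without mouse 8 and with no filter, while Abcc3 was called lower as well with a common median and Cyp2b10 without mouse 5. Cyp2b10, the usual target of Nr1i3, had a slope of -0.16 and an adjusted p of 0.229, and Cyp3a11, the usual target of Nr1i2, -0.06 and 0.446.

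Of 11 measured liver X receptor targets 2 rose and 0 fell, with a median slope of -0.03, against 5.2% of all probe sets higher and 2.57% lower. Pltp, the phospholipid transfer protein, had a slope of 0.31 ± 0.060 (SE; adjusted p = 0.0111 by limma), and Abcg1, a cholesterol exporter known in macrophages, 0.24 ± 0.048 (adjusted p = 0.0126). Without mouse 6 neither was called, without mouse 8 only Pltp was, and with no filter only Abcg1. With a common median Lpcat3 and Fasn were called lower. Macrophage markers rose with the score as given above, and their part in these slopes was not tested. The lipogenic targets Srebf1, Scd1 and Fasn had slopes of -0.12, -0.12 and -0.16 and did not pass. Nr1h3 itself, on that list as its own target, had a slope of 0.01 that turned to -0.04 with a common median.

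Of 16 measured glucocorticoid receptor targets 3 rose and 0 fell, with a median slope of -0.04, against 5.2% of all probe sets higher and 2.57% lower. They were Cdkn1a, a cell cycle inhibitor also induced by p53, with a slope of 0.45 ± 0.064 (SE; adjusted p = 0.00175 by limma), Fkbp5, a chaperone partner of steroid receptors, with 0.22 ± 0.040 (adjusted p = 0.00674), and Nfkbia, the NF-kappa-B inhibitor, with 0.18 ± 0.046 (adjusted p = 0.0433). Only Cdkn1a was called without mouse 6, and with a common median Angptl4 was called lower. Nfkbia was called in only 6 of 20 alternatives and in 1 of 8 with a mouse left out, so the third rise is not steady. The gluconeogenic targets G6pc and Pck1 had slopes of 0.06 and -0.09 and did not pass. Steroid receptor chaperones had 1 of 9 called higher (Fkbp5) and 1 lower (Fkbp4, -0.20 ± 0.045, adjusted p = 0.0227 by limma), and neither was called without mouse 6. Fkbp4 was not called either without mouse 8, with no filter or with the Gapdh and beta-actin ratio as covariate. Of 4 retinoic acid targets and 15 coregulators measured, 0 were called. In lists this short, 0 or 1 calls in a direction are not read as differing from the shares over all probe sets (5.2% higher, 2.57% lower).

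Whether a receptor's level went with that of a gene it is known to control was asked for 30 listed pairs, of which 16 had both genes measured. Pearson's r over the 8 mice was above 0 for 12 pairs and below 0 for 4. By an exact two-sided permutation test 4 pairs had a p under 0.05 and 0 had an adjusted p under 0.05 over the 16 pairs, the lowest being 0.0651. Arrays of mice 1 to 4 and 5 to 8 hold 4 mice each, too few for a correlation within either, so r of the deviations from each set's mean is given beside the pooled one.

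The highest was Rxra with Cyp7a1, which catalyses the rate-limiting step from cholesterol to bile acids. Cyp7a1 read 1000, 934, 723, 922, 337, 258, 917 and 950 in mice 1 to 8, so that mice 5 and 6, lowest for Rxra and Nr1i2, were also far the lowest here. The r was 0.942 (exact permutation p = 0.00407, adjusted p = 0.0651) and Spearman's rho 0.714 (exact p = 0.0576, adjusted p = 0.307). Without mice 5 and 6, which are also the 2 farthest from the Rxra median, r was 0.509, so the relation rests on those 2 mice. Without mouse 5 alone r was 0.919, without mouse 6 alone 0.896, and for deviations from the means of the array sets 0.941. Without mouse 1 the pair passed, with an r of 0.980 and an adjusted p of 0.0254 by the exact permutation test. Since the mice with low Cyp7a1 form a group of their own, the pooled r does not describe the other 6.

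Nr5a2, known as a regulator of both genes, correlated with Scarb1, the high-density lipoprotein receptor, and with Cyp7a1. Scarb1 read 5690, 4780, 4213, 4838, 4112, 4661, 4889 and 5056 in mice 1 to 8. The r with Scarb1 was 0.829 (exact permutation p = 0.0127, adjusted p = 0.0696), rho was 0.833 (exact p = 0.0154, adjusted p = 0.246) and r without the 2 mice farthest from the Nr5a2 median (1 and 5) was 0.522. With Cyp7a1, r was 0.801 (exact permutation p = 0.0130, adjusted p = 0.0696), rho 0.738 (exact p = 0.0458, adjusted p = 0.307) and r without mice 1 and 5 was 0.731. For deviations from the means of the array sets r was 0.844 with Scarb1 and 0.743 with Cyp7a1. Neither pair passed the adjustment, and the second Nr5a2 probe set did not share the order of the mice without mouse 5.

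Rora with Cyp7b1, the oxysterol hydroxylase, was the fourth pair, with an r of -0.713 (exact permutation p = 0.0463, adjusted p = 0.185) and a rho of -0.452 (exact p = 0.267, adjusted p = 0.598). Without mice 3 and 8, which had the lowest Rora and the highest Cyp7b1, r was 0.128, and for deviations from the means of the array sets it was -0.718. The pairs of drug clearance, Nr1i3 with Cyp2b10 (r = 0.647) and Nr1i2 with Cyp3a11 (0.497), were above 0 without passing, and r for deviations from the means of the array sets was 0.439 and 0.07. Nr4a1 with G6pc had an r of 0.620, and Nr1h3 with its targets Srebf1 and Abca1 0.02 and -0.176. Esrra with Acadm had 0.352.

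**Figure D5:**
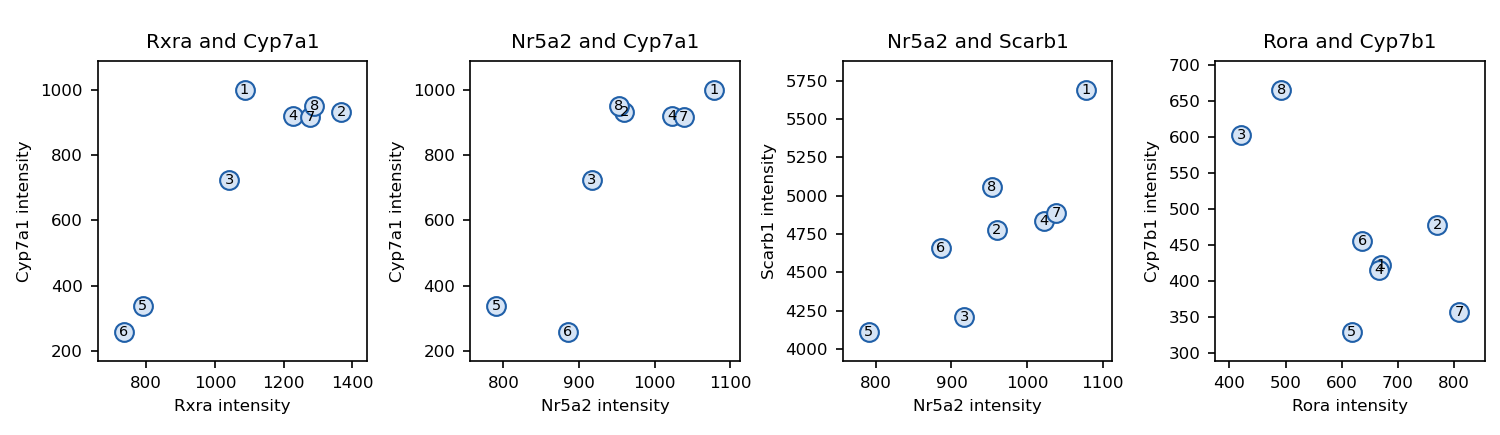
Intensity of a receptor (horizontal axis) and a gene it is known to control (vertical axis) in each mouse, with the mouse's number in the point, for the 4 pairs with an unadjusted exact permutation p under 0.05. Mice 5 and 6 stand apart from the other 6 for Cyp7a1, and mice 3 and 8 stand apart for Rora and Cyp7b1; axes do not start at 0.

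Genes with the most similar pattern were taken for the 4 receptors with the largest variance relative to the expected one, by Pearson's r of log2 intensity over the 8 mice among 4868 other measured genes, as a description. Nr4a1 was closest to Gldc (0.952), Krt33b (0.939) and Bub3 (0.933), all lowest in mouse 3. Esrra was closest to Tub (0.978), Aup1 (0.963) and Krt71 (0.962), all lowest in mouse 5, and without mouse 5 these were 0.860, 0.887 and 0.747. Rxrb was closest to Prrg2 (0.932), Mrpl40 (0.925) and Acvr2b (0.916), all lowest in mouse 8. Rxra was closest to Tbrg4 (0.953), Setdb1 (0.945) and Zfp276 (0.943), each lowest in mouse 5 or 6.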

How the data were processed

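RNA of 8 livers, 1 array each, was measured per the labels. The authors deposited 1 intensity per probe set on a linear scale; the software that summarized the probes is not given in the sources at hand. Trimmed by 2% at either end, the mean was 499.8 on every array, so no further scaling was applied. Of 12488 probe sets, 66 controls were left out. Probe sets were named from the platform annotation where it gives 1 symbol (10855; 396 had several and 1237 none). Symbols can be old.

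Intensities were raised to a floor of 37.2 and converted to log2, and 6265 probe sets (4869 genes) with a mean of at least 165.2 were tested. Of their 50120 values, 67 lay at the floor. The brightest probe set stood for a gene. Tests used limma 3.58.1 in R 4.3.3, with Benjamini-Hochberg adjustment at 0.05 over all probe sets: an F test of the variance against the variance expected at a probe set's brightness (squeezeVar with trend, robust), and slopes (lmFit, eBayes with trend, robust). Receptor and target pairs were tested over all 40320 pairings of the mice, in Python 3.11.15. Both limma tests were tried on simulated data. The labels name separate mice, and the number of arrays limits the precision. The members and the gene lists were chosen with earlier results of these data known. Every member was described. Other genes named are those of listed pairs, up to 4 called genes of each list by size of slope (and Ehhadh, the fifth, after its values were seen), list members given for context after their values were seen, and the 3 genes most like each of 4 receptors. Alternatives were another floor, filter, scaling, choice of probe set, score or covariate, and each mouse left out. Promoters came from RefSeq.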

Additional observations from a re-analysis of the deposited data

Results flagged for a closer look

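Over 30 sets of 8 values (15 receptors, the target genes of the tested pairs and 3 control ratios), 3 had a mouse whose gap to its nearest neighbour, as a share of the range, passed Dixon's 95% limit. Chance flags about 1 set in 20. All 3 concern mouse 5. Esrra was lowest there, with a gap of 0.595 of the range on the log2 scale and an intensity of 586, against 922 in the next lowest, while its second probe set read 383, between the other mice. The Gapdh 3′ to 5′ control ratio was highest there, with a gap of 0.756 of the range, and so was that of pyruvate carboxylase, with a gap of 0.544. The part of these ratios in the Esrra value was not tested beyond the slope fit, in which Esrra had an adjusted p of 0.170 by limma.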

How the results depend on the processing

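No paired analysis was possible because the 8 mice form 1 group and their numbers pair nothing. Counts of receptors called stayed at 0 in the fits on all receptors, with the exceptions that follow. The chi-square test of spread called 4 (and 1147 probe sets). A common median gave 1 with the interferon score (Nr2f2, where 618 of 6262 probe sets were called). Averaging all probe sets gave 1 with the 3′ to 5′ ratio (Nr5a2, where 40 of 4869 genes were called). The pairs gave 0 to 1 with a mouse left out. Measured receptors were 23 at the lower threshold of 37.2. Probe sets called with the interferon score were 307 with no filter and 135 to 501 with a mouse left out; with the 3′ to 5′ ratio they were 31 with a stricter filter, 17 with none, 28 after quantile normalization and 0 to 115 with a mouse left out. Interferon slopes that turned were those of Nr1h3 (-0.00673 with the macrophage score, -0.0380 with a common median), Nr2f6 (-0.00749 and -0.00198 with the control ratio of 2 or 3 transcripts as covariate, -0.0275 with a common median), Esrra (-0.0530, -0.0406 and -0.0143 in the same 3 fits, -0.0300 with all probe sets averaged), Nr4a1 (0.0729 with the macrophage score, 0.109 with the acute phase score, 0.00461 with no filter) and Nr5a2 (0.0669 with all probe sets averaged). With a mouse left out, slopes ranged from -0.131 to 0.0611 for Rxra, -0.140 to 0.000694 for Rxrb, -0.00434 to 0.0532 for Nr1h3, -0.106 to 0.0853 for Nr1i2, -0.0238 to 0.0621 for Nr2f6, -0.0692 to 0.112 for Esrra, -0.126 to 0.0941 for Nr4a1 and -0.0451 to 0.0255 for Nr5a1; the slope of Esrra on the 3′ to 5′ ratio ranged from -0.660 to 0.135. Correlations that turned were Nr5a2 with Cyp8b1 (-0.235) and Esrra with Idh3a (0.266) with all probe sets averaged, and Nr1h3 with Srebf1 (-0.211), Rxra with Cyp3a11 (-0.493) and Nr2f2 with Cyp7a1 (-0.308) without mice 5 and 6. With a mouse left out r ranged from -0.527 to 0.141 for Nr1h3 with Abca1, -0.309 to 0.178 for Nr1h3 with Srebf1, -0.392 to 0.260 for Rora with G6pc, -0.400 to 0.612 for Esrra with Idh3a, -0.266 to 0.597 for Rxra with Cyp3a11 and -0.301 to 0.428 for Nr2f2 with Cyp7a1. The causes were not tested. Values under the floor of 37.2 carry no usable order, and 8 of the 16 receptors near background had means under it. The other 8 means lay between the floor and the threshold, so what can be said of all 16 is limited.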
